A study of Ramazzottius varieornatus with 18 samples.

Results

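The 5 transcripts described here are the CAHS transcripts of *R. varieornatus* whose gene numbers follow each other. They form a run of 3, g673.t1, g674.t1 and g675.t1, and a run of 2, g4307.t1 and g4308.t1. They were chosen by number alone from the 15 CAHS transcripts that the study lists, out of 14532 transcripts in the files, and the other 10 CAHS transcripts have no such neighbour in that list. All 5 passed the filter on low counts, each is the only transcript of its gene, and their coding lengths were 714, 786, 651, 1242 and 1584 bases in the order given. The sources used here pair these numbers with no genome position, so a run is a run of identifiers only.

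The tardigrade *Ramazzottius varieornatus*, strain YOKOZUNA-1, was kept on agar with the alga *Chlorella vulgaris* as food, and whole untreated juveniles were collected on 6 labelled days, Juvenile 2d to 7d. Each day has 3 libraries and there are 18 in all. The written methods name days 3 to 7 where the labels name days 2 to 7, and the labels are followed, so the day of a value is its labelled day. The labels do not say how many animals a library holds or whether the 3 come from separate cultures, so each p-value measures the spread between these libraries, which may be technical. In RNA from whole animals, fewer cells of a type and less RNA per cell cannot be told apart.

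CAHS stands for cytoplasmic abundant heat soluble, a family of proteins known only from tardigrades. The proteins stay in solution when heated, are largely without a fixed fold in water, and have been linked to survival of drying, in which they are thought to form gels or glasses inside the cell. Related protectants act elsewhere, the SAHS proteins outside the cell, MAHS and LEAM in the mitochondrion and Dsup on chromatin. The separate duties of the CAHS copies are not known from the sources used here, so the members are ordered by their runs.

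The total of estimated counts lay between 1250604 and 5095736 per library, with a median of 3700490. All 90 values of the 5 members were whole estimated counts (within 1e-06), from 7 to 22818, so none held the fraction that appears when a read is divided between similar sequences. Levels are given in TPM, the abundance of a transcript scaled by its effective length and by the library total. The libraries of Juvenile 6d and 7d varied more than the earlier ones. Over all transcripts with a mean above 1 TPM the median coefficient of variation was 12.8%, 13.9%, 15.4%, 16.0%, 38.7% and 27.3% from Juvenile 2d to 7d. The library labelled Juvenile 6d replicate 1 was most like the mean of Juvenile 2d (r = 0.937), Juvenile 6d replicate 3 was most like the mean of Juvenile 7d (r = 0.964), and Juvenile 7d replicate 3 was most like the mean of the Juvenile 6d libraries (r = 0.923). The other 15 libraries were most like their own day, but at Juvenile 6d and 7d by little. Juvenile 6d replicate 2 had r = 0.949 with its own day and 0.947 with Juvenile 7d. Juvenile 7d replicates 1 and 2 had 0.952 and 0.947 with their own day and 0.946 and 0.945 with Juvenile 6d. Results at these days are therefore also given without the library labelled Juvenile 6d replicate 1, or without it and Juvenile 7d replicate 3 together, a choice made after seeing the data. Juvenile 6d replicate 3 was kept in those fits. Leaving out a library for its likeness to another day can itself widen the difference between those days.

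The run g673 to g675 held 3 different courses. g675.t1 was the most abundant of the 3 at first and the least abundant in most late libraries, g674.t1 was lowest at Juvenile 2d and then higher, and g673.t1 was lowest at Juvenile 4d and high on both sides of it. g675.t1 had 6234, 5823 and 6166 TPM at Juvenile 2d, 3511, 3636 and 4297 TPM at Juvenile 3d, and 882, 1232 and 1233 TPM at Juvenile 4d. It had 545, 1245 and 2738 TPM at Juvenile 5d, 6816, 232 and 57.8 TPM at Juvenile 6d, and 426, 948 and 9.04 TPM at Juvenile 7d. The first 3 days did not overlap each other, whereas from Juvenile 5d on each day overlapped the next, and the highest value of this transcript stood in the library labelled Juvenile 6d replicate 1. The lowest value, in Juvenile 7d replicate 3, rested on 7 counts in the library of the lowest depth.

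g674.t1 had 440.4, 400.0 and 426 TPM at Juvenile 2d, 724, 663 and 668 TPM at Juvenile 3d, and 1092, 964 and 927 TPM at Juvenile 4d. It had 1288, 1083 and 1134 TPM at Juvenile 5d, 793, 1309.5 and 1344 TPM at Juvenile 6d, and 1112, 1200.4 and 1158 TPM at Juvenile 7d. The values of Juvenile 2d, 3d and 4d did not overlap, and the means of Juvenile 5d, 6d and 7d, between 1149 and 1168 TPM, differed by less than the spread between libraries. Its coefficient of variation among replicates was under 10% on every day but Juvenile 6d, where it was 26.9%.

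g673.t1 had 2009, 2024 and 1900.1 TPM at Juvenile 2d, 899, 955 and 1103 TPM at Juvenile 3d, and 494, 641 and 706 TPM at Juvenile 4d. It had 1144, 1544 and 1585 TPM at Juvenile 5d, 1220.2, 1298 and 1269 TPM at Juvenile 6d, and 734, 669 and 1510.0 TPM at Juvenile 7d. Juvenile 2d lay above every other day and Juvenile 4d below Juvenile 2d, 3d, 5d and 6d, but Juvenile 4d overlapped Juvenile 7d. At Juvenile 6d it varied by only 3.11% around 1262 TPM, on the same day on which g675.t1 varied by 163%.

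The run g4307 to g4308 joined a transcript with a peak at Juvenile 5d and one that was higher on each later day by its mean. g4307.t1 had 375, 398 and 408 TPM at Juvenile 2d, 237, 184 and 252 TPM at Juvenile 3d, and 84.0, 123 and 268 TPM at Juvenile 4d. It had 1663, 1706 and 1302 TPM at Juvenile 5d, 271, 839 and 848 TPM at Juvenile 6d, and 282, 245 and 1479 TPM at Juvenile 7d. Its Juvenile 5d libraries lay above every library of the other days except Juvenile 7d replicate 3, and its mean of 1557 ± 222 TPM at Juvenile 5d stood against 158 ± 96.9 TPM at Juvenile 4d (SD, n = 3 each).

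g4308.t1 had 41.0, 40.5 and 38.4 TPM at Juvenile 2d, 115, 89.7 and 99.4 TPM at Juvenile 3d, and 111, 112 and 126 TPM at Juvenile 4d. It had 181, 201 and 187 TPM at Juvenile 5d, 65.2, 279.7 and 321 TPM at Juvenile 6d, and 161, 150.1 and 391 TPM at Juvenile 7d. Juvenile 2d lay below every other day, Juvenile 3d and 4d overlapped each other, and Juvenile 5d lay above both. From Juvenile 5d to 7d the ranges overlapped.

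**Figure D1:**
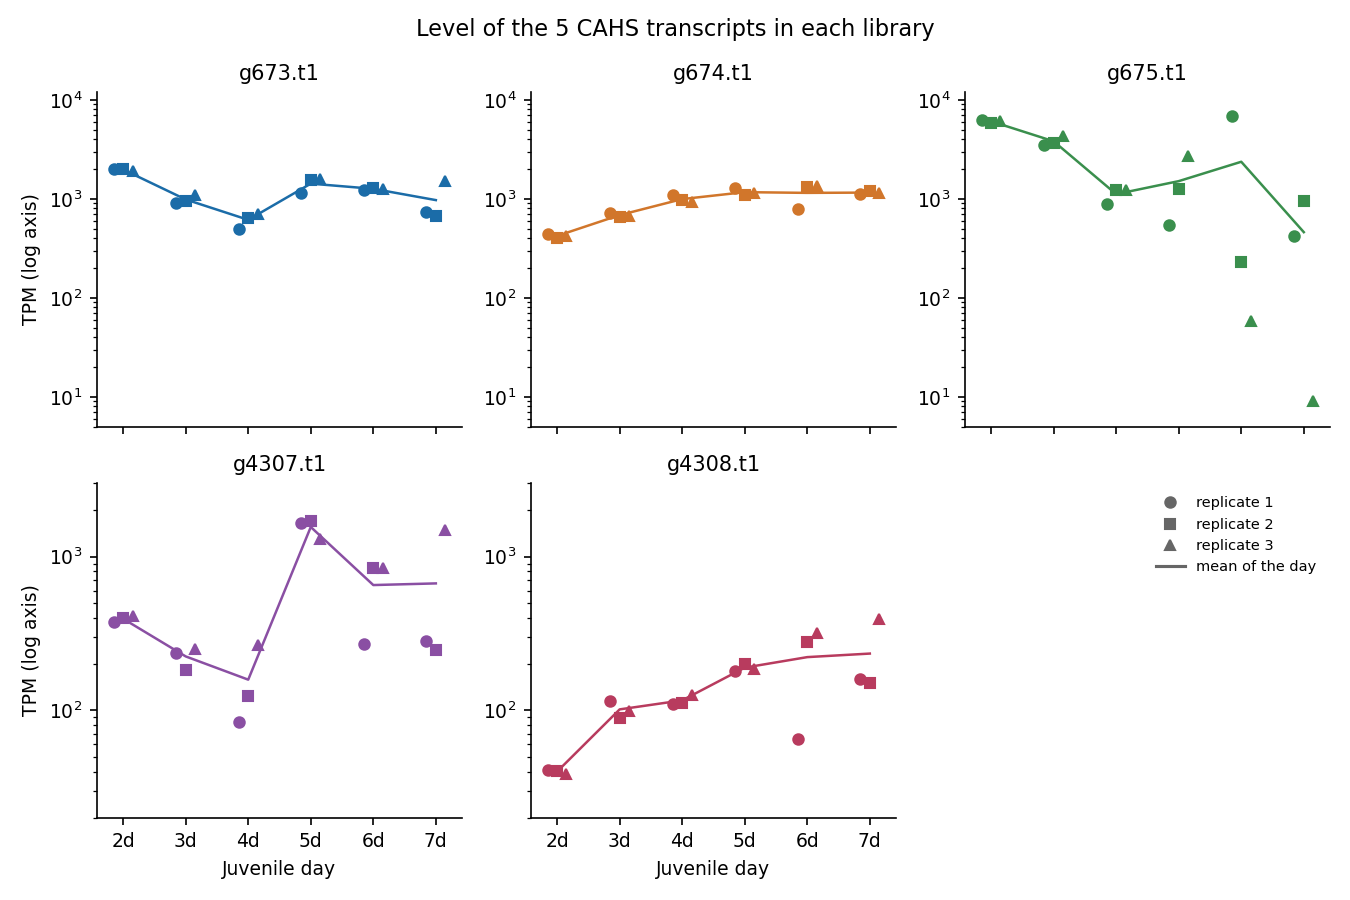
TPM of each CAHS transcript (log axis) on each juvenile day, with 1 marker per library and a line through the daily means. In g675.t1 the libraries spread from 57.8 to 6816 TPM at Juvenile 6d, while the 3 libraries of g674.t1 at Juvenile 7d stay between 1112 and 1200.4 TPM.

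The library labelled Juvenile 6d replicate 1 stood apart in 4 of the 5 members. Its level of g675.t1 was 47.0 times the mean of the other Juvenile 6d libraries, while the others were 4.60, 3.11 and 1.67 times higher than it in g4308.t1, g4307.t1 and g674.t1. In g673.t1 it was 0.951 times the others. Its values of g675.t1, g4307.t1 and g4308.t1 lay nearer those of Juvenile 2d than those of the other Juvenile 6d libraries. That of g674.t1, 793 TPM, lay between at most 440.4 TPM at Juvenile 2d and at least 1309.5 TPM in the other Juvenile 6d libraries. Juvenile 7d replicate 3 was 5.60 times the other Juvenile 7d libraries in g4307.t1, 2.52 times in g4308.t1 and 2.15 times in g673.t1. In g675.t1 the other 2 libraries were 75.9 times higher than Juvenile 7d replicate 3, and in g674.t1 it was 1.00 times the others.

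The steps between successive days ask which members changed and when. They were tested with edgeR's quasi-likelihood test on all 10436 transcripts that passed the filter, and a transcript was called at a Benjamini-Hochberg adjusted p of up to 0.05. Between Juvenile 3d and 2d, g673.t1 fell by 1.32 on the log2 scale (SE 0.30, edgeR adjusted p = 0.00656) and g674.t1 rose by 0.42 (SE 0.14, adjusted p = 0.0342), so these neighbours in number were called in opposite directions. Of all transcripts 14.0% were called higher and 11.8% lower at this step. g4308.t1 had a log2 fold change of 1.05 (adjusted p = 0.0569), g4307.t1 of -1.10 (adjusted p = 0.178) and g675.t1 of -0.95 (SE 1.35, adjusted p = 0.642), none of them called. DESeq2 called g4308.t1 as well at this step (1.05, adjusted p = 0.0248). The edgeR call of g674.t1 was lost without any 1 of the 6 libraries of Juvenile 2d and 3d, with adjusted p-values up to 0.106. Counts are here scaled by TMM, which leaves the median of all transcripts at 0.01. On the TPM scale that median was 0.24, and 0.14, -0.19 and 0.27 at Juvenile 4d against 3d, at 5d against 4d and for the late against the early days on the log2 scale. At Juvenile 3d against 2d limma on log2(TPM + 1) called 1800 transcripts higher and 559 lower, beside 1464 and 1230 by edgeR.

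Between Juvenile 5d and 4d 3 of the 5 members were called, against 24.8% of all transcripts, and all 3 had risen. Among the 10436 transcripts tested 1353 were called higher and 1238 lower at this step. g4307.t1 rose by 3.46 on the log2 scale (SE 0.63, edgeR adjusted p = 0.00129), g673.t1 by 1.45 (SE 0.31, adjusted p = 0.00330) and g674.t1 by 0.42 (SE 0.13, adjusted p = 0.0330). g4308.t1 had a log2 fold change of 0.90 (adjusted p = 0.0984) and g675.t1 of 0.62 (adjusted p = 0.781). The call of g674.t1 did not hold with limma on log2(TPM + 1), where its change was 0.23 (limma adjusted p = 0.358). It was also lost without any 1 of 5 of the 6 libraries of these days.

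At the remaining steps 0 of the 5 members were called. Between Juvenile 4d and 3d, where 12.5% of all transcripts were called, the changes were -1.94 for g675.t1 (SE 1.38, adjusted p = 0.401), -0.87 for g673.t1 (adjusted p = 0.0718), -0.66 for g4307.t1, 0.35 for g674.t1 and 0.03 for g4308.t1 on the log2 scale. DESeq2 called g673.t1 and g674.t1 at this step (adjusted p = 0.0376 and 3.64e-06). limma on log2(TPM + 1) called 0 members at these 3 steps, and DESeq2 called 1, g674.t1, at Juvenile 6d against 5d (adjusted p = 0.0472) and 0 at Juvenile 7d against 6d. Among all transcripts limma called 1275, 547 and 0 at these 3 steps, and DESeq2 called 1718 and 1284 at the first 2. At an unadjusted p of up to 0.05 edgeR gave 2 members at Juvenile 4d against 3d, 1 at 6d against 5d and 0 at 7d against 6d. Of the 10436 transcripts tested, 2772 and 2676 had such a p at the first 2 of these steps. Between Juvenile 6d and 5d 8.63% of all transcripts were called, and between Juvenile 7d and 6d 0% by edgeR, with 1059 transcripts at an unadjusted p of up to 0.05 and 53 called by DESeq2.

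**Figure D2:**
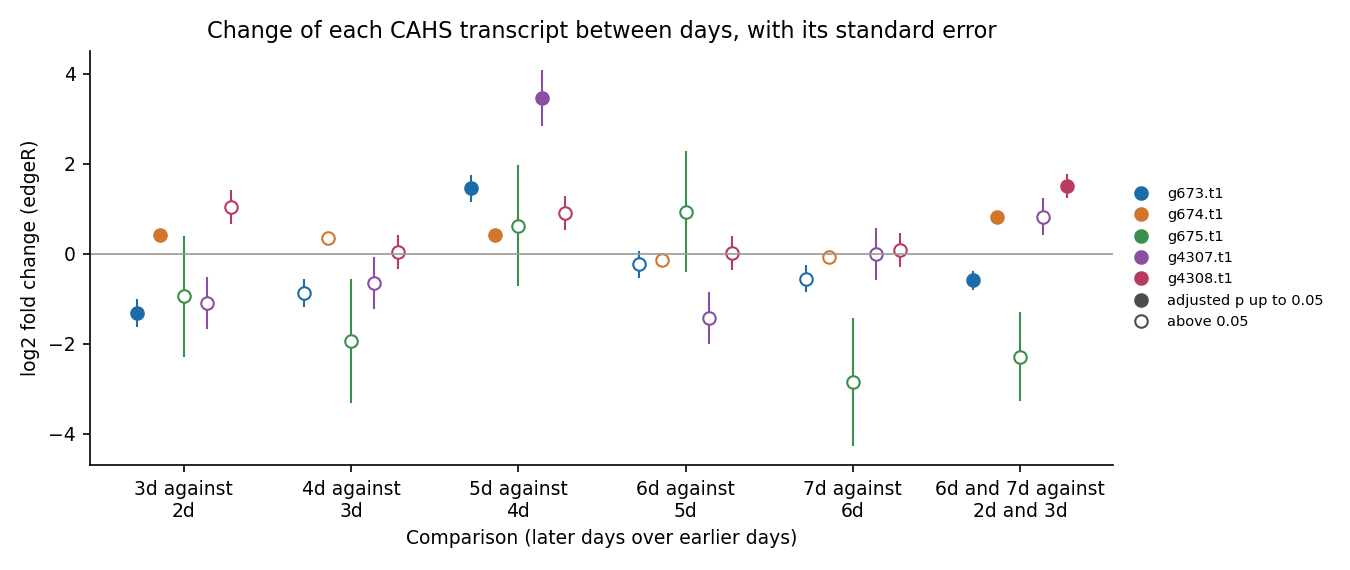
log2 fold change of each CAHS transcript by edgeR (later days over earlier days), with its standard error as bars, for the 5 steps and for Juvenile 6d and 7d against Juvenile 2d and 3d. Filled points have an adjusted p of up to 0.05 over all transcripts, and g675.t1 has the widest bars, with a standard error of 1.35 at the first step.

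All 18 libraries share a single estimate of the spread for each transcript, and the coefficient of variation of g675.t1 was 163% at Juvenile 6d and 102% at Juvenile 7d, beside 3.62%, 11.1% and 18.1% on the first 3 days. When the 12 libraries of Juvenile 2d to 5d were fitted alone with edgeR, 4 of the 5 members were called between Juvenile 3d and 2d, against 44.5% of all transcripts. They were g4308.t1 (1.05, adjusted p = 0.000104), g673.t1 (-1.31, adjusted p = 0.000362), g674.t1 (0.43, adjusted p = 0.00552) and g4307.t1 (-1.09, adjusted p = 0.0262), while g675.t1 had -0.94 (adjusted p = 0.107). Between Juvenile 4d and 3d that fit called 3 members, against 33.2% of all transcripts. g675.t1 fell by 1.93 (SE 0.45, adjusted p = 0.00772), g673.t1 fell by 0.86 (adjusted p = 0.00667) and g674.t1 rose by 0.37 (adjusted p = 0.0166). Between Juvenile 5d and 4d it called 4 members, all higher, against 43.9% of all transcripts, with g4308.t1 added at 0.90 (adjusted p = 0.000222). That step called 2236 transcripts higher and 2260 lower. In this fit, too, neighbours of a run differed in direction. g673.t1 and g674.t1 did so at both steps up to Juvenile 4d, and g4307.t1 and g4308.t1 at the first. Among all transcripts this fit called 2309 higher and 2247 lower at Juvenile 3d against 2d, and 1764 and 1628 at 4d against 3d. The share of all consecutive pairs called in opposite directions was not counted, here or in the fit of all 18 libraries. Opposite directions are therefore not read as particular to the CAHS runs.

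Juvenile 6d and 7d, averaged as the late days, were then set against Juvenile 2d and 3d, averaged as the early days. With edgeR, g674.t1 rose by 0.81 on the log2 scale (SE 0.10, adjusted p = 9.81e-05) and g4308.t1 by 1.50 (SE 0.27, adjusted p = 0.000804), and g673.t1 fell by 0.59 (SE 0.21, adjusted p = 0.0331). Of all transcripts 27.2% were called higher and 18.8% lower, or 2842 and 1964, beside 3536 and 1350 by limma on log2(TPM + 1). The call of g673.t1 was lost without any 1 of 9 of the libraries, with adjusted p-values up to 0.0826, and with limma on log2(TPM + 1) its change was -0.38 (limma adjusted p = 0.0897). g675.t1 had -2.29 (SE 0.99, adjusted p = 0.0712) and g4307.t1 0.83 (SE 0.41, adjusted p = 0.111), neither called. On the same 18 libraries g675.t1 was called by DESeq2 (-2.30, adjusted p = 0.0354) and by limma on log2(TPM + 1) (-4.16, adjusted p = 0.00714), and g4307.t1 by neither. Without the library labelled Juvenile 6d replicate 1, g675.t1 fell by 4.56 (SE 0.85, edgeR adjusted p = 0.000418), in a comparison that then called 54.7% of all transcripts. That library was left out for its likeness to Juvenile 2d, an early day, so the choice bears on this comparison itself.

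Over the 6 days edgeR called any difference in 4 of the 5 members, against 66.4% of all transcripts. The adjusted p-values were 8.46e-05 for g674.t1, 0.000507 for g673.t1, 0.00187 for g4307.t1 and 0.00251 for g4308.t1, and 0.143 for g675.t1. Without the library labelled Juvenile 6d replicate 1 all 5 were called, g675.t1 with an adjusted p of 0.00278, against 72.7% of all transcripts. That library holds the highest value of g675.t1, so this call cannot be read apart from the choice. Without that library and Juvenile 7d replicate 3, which leaves 2 libraries on each of these days, 3 members were called between Juvenile 6d and 5d (35.5% of all transcripts). g675.t1 fell by 3.62 (adjusted p = 0.00172), g4307.t1 fell by 1.15 (adjusted p = 0.0305) and g4308.t1 rose by 0.38 (adjusted p = 0.0480). With all 18 libraries these changes were 0.93, -1.43 and 0.01 (edgeR adjusted p = 0.720, 0.136 and 0.993). The direction of g675.t1 thus depends on the libraries left out, and these calls cannot be read apart from that choice. Between Juvenile 7d and 6d the same fit called g4307.t1 (-1.58, adjusted p = 0.0440) and g4308.t1 (-0.86, adjusted p = 0.0108), against 5.19% of all transcripts. At this step 325 transcripts were called lower and 222 higher. Juvenile 7d replicate 3 was left out for its likeness to Juvenile 6d. The choice bears on this step itself, so the calls cannot be read apart from it. With all 18 libraries the changes were -0.01 and 0.07.

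The members of a run can be compared directly by the ratio of their TPM in each library, which, apart from the pseudocount, does not depend on how the library was scaled. Ratios were taken as log2((TPM of the first + 1)/(TPM of the second + 1)) and tested with limma beside the 7935 pairs of tested transcripts with consecutive numbers, or, for g673.t1 with g675.t1, beside the 7629 pairs whose numbers differ by 2. g673.t1 stood above g674.t1 in all libraries of Juvenile 2d and 3d and below it in all of Juvenile 4d, and from Juvenile 5d on the order differed between libraries of a day. The log2 ratio was 2.19, 2.34 and 2.15 at Juvenile 2d, 0.31, 0.53 and 0.72 at Juvenile 3d, and -1.14, -0.59 and -0.39 at Juvenile 4d. At Juvenile 5d it was -0.17, 0.51 and 0.48, at Juvenile 6d 0.62, -0.01 and -0.08, and at Juvenile 7d -0.60, -0.84 and 0.38. The first 3 days did not overlap, and g673.t1 was the higher of the pair in 10 of the 18 libraries, all 6 of Juvenile 2d and 3d among them.

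The ratio of g673.t1 to g674.t1 fell by 1.71 between Juvenile 3d and 2d (95% interval of the change -2.39 to -1.02, limma adjusted p = 0.00213) and by 1.23 between Juvenile 4d and 3d (-1.91 to -0.54, adjusted p = 0.0202). It then rose by 0.98 between Juvenile 5d and 4d (0.30 to 1.67, adjusted p = 0.0340). Late against early days it fell by 1.46 (-1.95 to -0.98, limma adjusted p = 0.000377), and the exact two-sided permutation test over 6 late and 6 early libraries gave p = 0.0108. Here and for the other pairs, that test treats the libraries as independent, although libraries of the same day share that day. The call between Juvenile 4d and 3d was lost without Juvenile 3d replicate 2, Juvenile 3d replicate 3 or Juvenile 4d replicate 1, and that between Juvenile 5d and 4d without replicate 1 or 2 of Juvenile 4d or replicate 2 or 3 of Juvenile 5d. The changes at Juvenile 6d against 5d (-0.10) and at Juvenile 7d against 6d (-0.53) were not called, with 95% intervals of -0.78 to 0.59 and -1.21 to 0.16.

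In the run of 2, g4307.t1 was the higher in 17 of the 18 libraries, the exception being Juvenile 4d replicate 1, but by a factor that moved up and down. The mean ratio corresponded to 9.64-fold at Juvenile 2d, 2.19-fold at 3d, 1.21-fold at 4d, 8.13-fold at 5d, 3.19-fold at 6d and 2.21-fold at 7d. The log2 ratio fell by 2.14 between Juvenile 3d and 2d (-2.90 to -1.37, limma adjusted p = 0.00110), rose by 2.75 between Juvenile 5d and 4d (1.98 to 3.51, adjusted p = 0.000103) and fell by 1.35 between Juvenile 6d and 5d (-2.11 to -0.59, adjusted p = 0.0285). The last of these calls was lost without Juvenile 5d replicate 1 or 2 or Juvenile 6d replicate 2 or 3. The change of -0.86 between Juvenile 4d and 3d was not called (adjusted p = 0.126). Late against early days the ratio fell by 0.79 by limma (adjusted p = 0.0194). The exact two-sided permutation test over 6 late and 6 early libraries gave p = 0.167 and did not bear out the call. It shuffles libraries across days, so differences between days enter its spread, while limma uses the spread within days. The early libraries span log2 ratios of 3.16 to 3.38 at Juvenile 2d and 1.03 to 1.33 at Juvenile 3d.

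The ratio of g674.t1 to g675.t1 covered the widest range of the pairs of consecutive members, with daily means of -3.84, -2.47, -0.15, -0.08, 1.30 and 2.86 on the log2 scale from Juvenile 2d to 7d. The SD over 3 libraries was 0.02 at Juvenile 2d and 0.20 at Juvenile 3d, and 3.95 at Juvenile 6d and 3.50 at Juvenile 7d. No single step was called by limma, which takes 1 spread for each pair over all 6 days. The libraries of the first 3 days did not overlap, with ranges of -3.86 to -3.82, -2.68 to -2.28 and -0.41 to 0.31. Ratios were not fitted without the late days, so the missing calls do not show that the early steps were unchanged. Late against early days the ratio rose by 5.24 (SE 1.16, 95% interval 2.77 to 7.71, limma adjusted p = 0.00248, exact permutation p = 0.00866), and without the library labelled Juvenile 6d replicate 1 by 6.34 (adjusted p = 5.65e-05). As above, leaving out that library bears on this comparison itself. The ratio of g673.t1 to g675.t1 rose by 3.78 in the same comparison (1.26 to 6.29, limma adjusted p = 0.0172, exact permutation p = 0.0152). The 2 ratios share g675.t1 and are not independent.

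In the late against early comparison all 4 member pairs were called by limma, beside 46.6% of all pairs with consecutive numbers and 47.1% of the pairs 2 numbers apart. For any difference over the days 3 pairs were called, all but g673.t1 with g675.t1 (adjusted p = 0.127), beside 68.4% and 70.5%. At the single steps, where the 3 consecutive member pairs were read, the calls were 2 beside 22.3% of all pairs at Juvenile 3d against 2d, 1 beside 14.1% at 4d against 3d, 2 beside 27.2% at 5d against 4d, 1 beside 9.36% at 6d against 5d, and 0 beside 0.0504% at 7d against 6d. At the last of these steps limma called 4 of the 7935 pairs and gave 864 at an unadjusted p of up to 0.05, 0 of them member pairs. A changing ratio was thus common among neighbours in number, and these counts set nothing apart about the CAHS pairs.

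**Figure D3:**
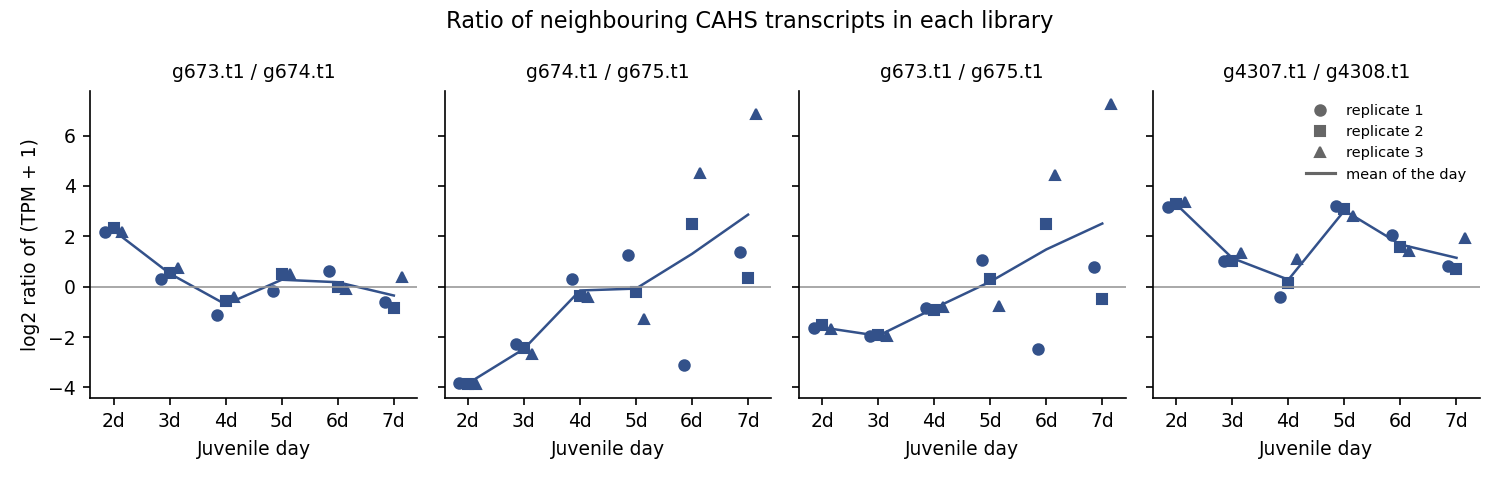
log2 ratio of (TPM + 1) of the first transcript over the second in each library by juvenile day, with a line through the daily means and 0 marking equal levels. At Juvenile 6d g674.t1 over g675.t1 runs from -3.10 to 4.52, against -3.86 to -3.82 at Juvenile 2d.

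The make-up of the run g673 to g675 differed between the days, and the shares are given with no test of their own. g675.t1 took 71.7% ± 1.00 of the TPM of the run at Juvenile 2d and 69.5% ± 1.23 at Juvenile 3d (SD, n = 3). Its share was 40.7% ± 4.32 at Juvenile 4d and 33.5% ± 16.0 at Juvenile 5d. At Juvenile 6d it ranged from 2.16% to 77.2%, and at Juvenile 7d from 0.338% to 33.6%. g674.t1 took 4.98% ± 0.116 at Juvenile 2d, 12.6% ± 1.55 at 3d, 36.9% ± 6.45 at 4d, 30.7% ± 11.5 at 5d, 35.1% ± 22.7 at 6d and 44.9% ± 3.48 at 7d. The order g675.t1, g673.t1, g674.t1 from high to low held in 8 of the 18 libraries, namely all 6 of Juvenile 2d and 3d, Juvenile 5d replicate 3 and the library labelled Juvenile 6d replicate 1.

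In the other run g4307.t1 took 90.8% ± 0.631 at Juvenile 2d, 68.7% ± 2.60 at 3d, 54.5% ± 12.6 at 4d, 89.0% ± 1.41 at 5d, 76.0% ± 4.12 at 6d and 68.3% ± 9.38 at 7d. Levels of different transcripts depend on the effective length, which the software derives from the coding length and the fragment length it was given. It was 46.4% of the coding length in g675.t1 and 78.7% in g4308.t1. With counts per full coding length the share of g675.t1 at Juvenile 2d was 69.5% and that of g4307.t1 was 89.9%.

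**Figure D4:**
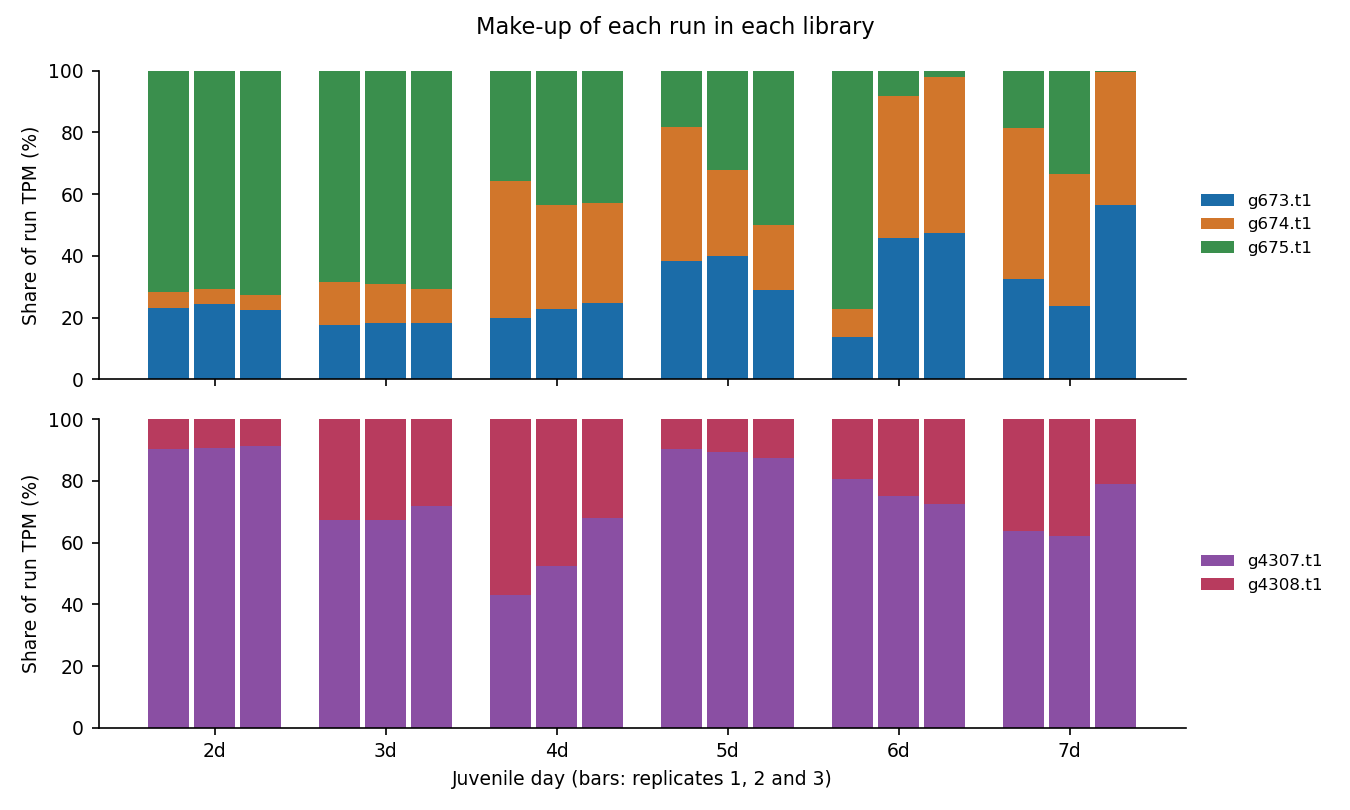
Share of the TPM of each run (%) taken by each member, 1 stacked bar per library, 3 bars per juvenile day. In the upper panel g675.t1 holds between 0.338% and 33.6% at Juvenile 7d, against 70.6% to 72.6% at Juvenile 2d, and in the lower panel g4307.t1 holds between 43.2% and 68.1% at Juvenile 4d.

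Together the members held 22.2%, 20.6%, 26.1%, 31.0%, 20.3% and 22.1% of the summed TPM of the 15 CAHS transcripts from Juvenile 2d to 7d, while that sum was 4.01%, 2.82%, 1.16%, 1.94%, 2.70% and 1.62% of all TPM. In single libraries the members' share lay between 16.0% in Juvenile 6d replicate 2 and 36.4% in Juvenile 5d replicate 1. The run of 2 alone held 9.81% of the CAHS sum at Juvenile 5d, against 1.08% at Juvenile 2d. The run of 3 held 2724 ± 222 TPM at Juvenile 4d, against 8474 ± 218 TPM at Juvenile 2d, and the run of 2 held 1747 ± 226 TPM at Juvenile 5d, against 274 ± 105 TPM at Juvenile 4d (SD, n = 3 each). By mean TPM over the 18 libraries g675.t1 was 3rd of the 15, g673.t1 7th, g674.t1 9th, g4307.t1 10th and g4308.t1 12th. The ratio of highest to lowest library was 754 in g675.t1, 20.3 in g4307.t1, 10.2 in g4308.t1, 4.10 in g673.t1 and 3.36 in g674.t1.

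The likeness of 2 courses is given as Pearson's r of log2(TPM + 1) over the 18 libraries, as a description with no test, since libraries of the same day share that day. Within the run of 3 it was -0.46 for g673.t1 with g674.t1 (Spearman's rho -0.25), -0.70 for g674.t1 with g675.t1 (rho -0.87) and 0.12 for g673.t1 with g675.t1 (rho 0.34). Within the run of 2 it was 0.51 (rho 0.51). Over all 7935 pairs with consecutive numbers the median r was 0.22, and 34.6% of pairs had an r below 0. The pair of g674.t1 and g675.t1 was thus among the 2.79% of pairs with the lowest r, and its ratio varied with an SD of 2.96 over the libraries, against a median of 0.68 over all such pairs.

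Some members were more like a member of the other run than like their own neighbours. g674.t1 was most like g4308.t1 among the CAHS transcripts (r = 0.90, rho 0.88), and g4308.t1 was more like g674.t1 than like its own neighbour. g673.t1 with g4307.t1 had r = 0.65 (rho 0.72), while the CAHS transcript most like g673.t1 was g3884.t1, outside both runs (r = 0.79, rho 0.78). Among 10435 transcripts g4308.t1 was only the 90th most like g674.t1, and g4307.t1 the 493rd most like g673.t1. Taken as deviations from the mean of each day, r was 0.75 and 0.78 for these 2 pairs, and without the 2 doubtful libraries it was 0.95 and 0.64. g675.t1 was opposite to g4308.t1 (r = -0.85) as well as to g674.t1.

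Among the CAHS transcripts g675.t1 was most like 3 outside both runs. With g612.t1 its r was 0.957, with g7798.t1 0.954 and with g5971.t1 0.873, which placed them 9th, 11th and 193rd among 10435 transcripts. The library labelled Juvenile 6d replicate 1 was also high in these 3, at 85.3, 13.9 and 8.42 times the mean of the other Juvenile 6d libraries, and without it and Juvenile 7d replicate 3 the r values were 0.952, 0.919 and 0.837. By place in the whole table no CAHS transcript was among the 3 most like any member. Those were g4663.t1, g191.t1 and g11454.t1 for g675.t1, g2954.t1, g8293.t1 and g11877.t1 for g674.t1, g10057.t1, g10022.t1 and g13044.t1 for g673.t1, g1805.t1, g1846.t1 and g7274.t1 for g4307.t1, and g11692.t1, g7486.t1 and g4271.t1 for g4308.t1, all with r between 0.954 and 0.980. The choice depends on the measure, since by Spearman's rho 1 or 2 of the 3 were the same for each member, and by the r of daily means 0 of 3 for g675.t1 and g4308.t1 and 1 of 3 for the others. The sources used here give these transcripts no names.

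**Figure D5:**
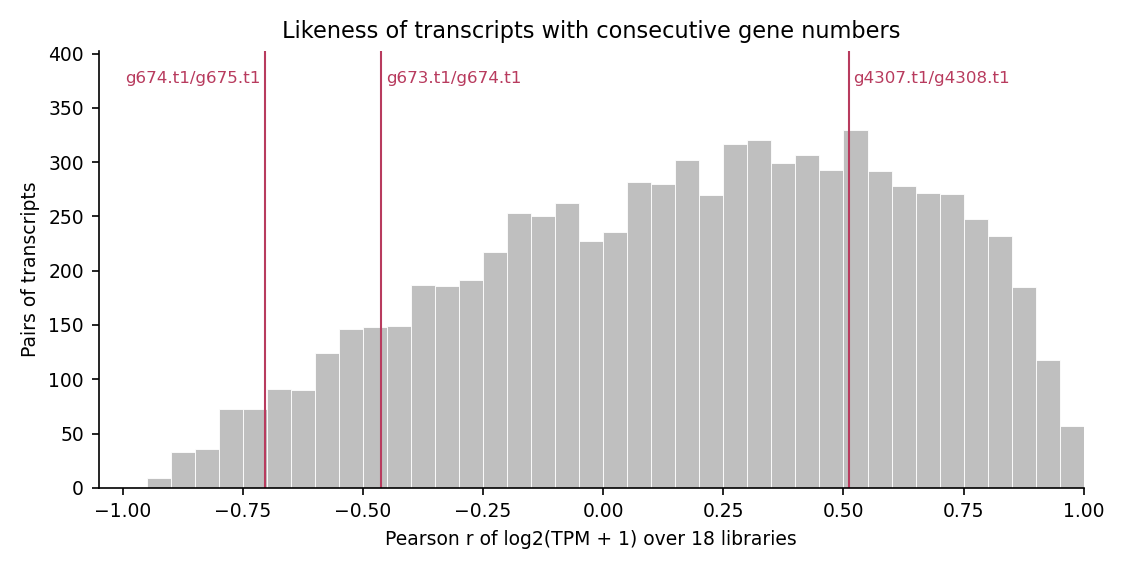
Number of pairs of transcripts with consecutive gene numbers (7935 pairs) by their Pearson r of log2(TPM + 1) over the 18 libraries, with vertical lines at the 3 pairs of CAHS transcripts. The pairs of the run of 3 lie at -0.70 and -0.46, below the median of 0.22, and the pair of the run of 2 lies at 0.51.

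Of the other 10 CAHS transcripts 7 passed the filter. Late against early days edgeR called 3 of the 7, all lower (g612.t1, g5971.t1 and g7798.t1), beside 2 members higher and 1 lower and beside 18.8% lower and 27.2% higher of all transcripts. The median log2 fold change of that comparison was 0.81 over the 5 members and -0.25 over the 7, against 0.09 over all transcripts. Of the 13 SAHS transcripts 10 were tested, and late against early days 2 were higher and 1 lower, beside the same 27.2% and 18.8% of all transcripts. In the same comparison the MAHS transcript g6834.t1 rose by 2.33 (edgeR adjusted p = 0.000168), the LEAM transcript g2978.t1 fell by 1.06 (adjusted p = 0.000831) and the Dsup transcript g4591.t1 had 0.10 (adjusted p = 0.477).

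The transcripts numbered up to 3 before and after each run were read in the same way, and 11 of these 13 were tested. g4304.t1 and g4305.t1 were listed at 0 in all 18 libraries. Next to the run of 3, g676.t1 fell between Juvenile 3d and 2d (-0.97, edgeR adjusted p = 0.00652) and between Juvenile 4d and 3d (-0.91, adjusted p = 0.0164), and its mean of 357 TPM at Juvenile 7d stood against 758 TPM at Juvenile 2d. On the other side, g672.t1 averaged 10.2 TPM at Juvenile 4d, its highest day, far below g673.t1. Next to the run of 2, g4306.t1 had daily means between 28.1 and 61.6 TPM and g4309.t1 between 1.72 and 14.3 TPM. Late against early days 5 of the 11 were called lower and 1, g678.t1, higher (0.77, edgeR adjusted p = 0.000946), beside 18.8% lower and 27.2% higher of all transcripts. None of the flanking transcripts is in the study's CAHS list, and the sources used here give them no names.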

How the data were processed

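Juvenile RNA was read as single-end Illumina reads after SMARTer amplification. The authors ran kallisto against predicted coding sequences. Their deposited values, library by library, are estimated counts without normalization and TPM, which is scaled by effective length and library total. The submitters' processing notes name kallisto 0.42.4 and 0.44.0. The fragment length implied by the deposited lengths was 350 bases, while per the labels the libraries were selected for a shorter size, which bears on levels between transcripts and not on changes of a transcript. The TPM matrix and the library files held the same values. Since 99.6% of the lengths can be divided by 3, they are called coding lengths.

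Rounded estimated counts entered edgeR 4.0.16 under R 4.3.3 (low counts removed by filterByExpr, TMM, quasi-likelihood F test, all 18 libraries, day as the only term). The standard error of a log2 fold change is its size over the square root of F. Log2 ratios of neighbouring transcripts, with a pseudocount of 1 TPM, were tested with limma 3.58.1 over all such pairs. Benjamini-Hochberg adjustment ran over all transcripts, or all pairs, of a comparison. The study's own tests used DESeq2 on counts from another aligner, not used here, and DESeq2 1.42.0 was run as an alternative. Both tests were tried on simulated data with the same spread for all transcripts and days. The libraries here differ in spread between days, so no result rests on that trial. Python 3.11.15 gave the exact permutation tests (scipy 1.17.1), the levels and likeness (pandas 2.3.3, numpy 2.4.6) and the figures (matplotlib 3.10.9). The reads carry no molecular identifiers, so precision read from a count covers counting error only.

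The rule for the members uses gene numbers alone, but it and the lists were set with earlier results of these data known. Named transcripts are all 5 members, the transcripts numbered up to 3 on each side of a run, the 3 most like each member, and the other CAHS, SAHS, LEAM, MAHS and Dsup transcripts as counts. CAHS, LEAM, MAHS and Dsup transcripts named beyond that were chosen after their values were seen. The alternatives tried were RLE size factors, DESeq2, no filter, fewer libraries, a replicate block, limma on log2 TPM, other pseudocounts, ratios of counts, medians, rank correlation and leaving out libraries. No identifier here matched the RefSeq gene table, so no positions or sequences are given.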

Additional observations from a re-analysis of the deposited data

How the results depend on the processing

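The counts of members called depended on the fit. Between Juvenile 3d and 2d edgeR called 2 members (25.8% of all transcripts), against 1 with no filter (18.3%), 1 with a replicate block (23.0%), 5 with the libraries of these days alone (48.9%), 4 with Juvenile 2d to 5d alone (44.5%), and 1 to 4 without 1 library (15.7% to 34.5%). Between Juvenile 4d and 3d it called 0 (12.5%), against 2 by DESeq2 (15.7%), 2 with those days alone (30.5%), 3 with Juvenile 2d to 5d alone (33.2%) and 0 to 2 without 1 library (4.63% to 21.4%). Between Juvenile 6d and 5d it called 0 (8.63%), against 1 by DESeq2 (12.3%) and 0 to 1 without 1 library (2.39% to 26.5%). The ranges without 1 library were 2 to 4 between Juvenile 5d and 4d (15.5% to 33.0%). They were 2 to 4 late against early (39.4% to 54.7%) and 4 to 5 for any difference (57.7% to 72.7%). Without the library labelled Juvenile 6d replicate 1 and Juvenile 7d replicate 3, chosen after seeing the data, the counts were 4, 3, 4, 3 and 2 at the 5 steps (43.1%, 31.1%, 42.4%, 35.5% and 5.19%). Of the 4 member pairs, g673.t1 with g675.t1 among them, 3, 3 and 1 were called at Juvenile 4d against 3d, 6d against 5d and 7d against 6d. For the 4 member pairs the ranges without 1 library were 0 to 2, 1 to 2 and 0 to 1 at Juvenile 4d against 3d, 5d against 4d and 6d against 5d. The share of all pairs called was not set beside these pair counts, so they are not read as a result about the CAHS pairs. Why the counts differed between fits was not tested.

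Direction changed only in values that were not called in the fit of all 18 libraries. Of g675.t1 at Juvenile 6d against 5d (0.93), limma gave -1.44 and -1.45 (pseudocounts 1 and 0.1), and edgeR -3.64 to 1.69 without 1 library, lowest without the one labelled Juvenile 6d replicate 1, and -3.62 without both doubtful libraries. At Juvenile 7d against 6d (-2.85) it had -3.86 to 1.68 without 1 library and 2.27 without both, and at Juvenile 5d against 4d -0.14 to 1.03 without 1 library. g4308.t1 at Juvenile 6d against 5d (0.01) had -0.060 with RLE and DESeq2, -0.057 with the replicate block, -0.068 and -0.071 with limma, -0.24 to 0.35 without 1 library and 0.38 without both. At Juvenile 7d against 6d (0.07) it had -0.49 to 0.32, and -0.86 without both, and at Juvenile 4d against 3d -0.079 to 0.11. g4307.t1 at Juvenile 7d against 6d (-0.01) had 0.017 with RLE, 0.015 with DESeq2, -1.31 to 0.39 without 1 library and -1.58 without both, and g674.t1 (-0.07) had 0.049 with limma at both pseudocounts. The ratio of g674.t1 to g675.t1 ranged from -0.58 to 0.67, -0.23 to 3.58 and -0.64 to 3.16 at the last 3 steps without 1 library, and was -2.64 at the last without both. For g673.t1 to g675.t1 the last 2 ranges were -0.20 to 3.26 and -1.33 to 2.53, with -3.31 without both, and for g673.t1 to g674.t1 it was -0.32 to 0.030 at Juvenile 6d against 5d.

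The labels give each day replicates 1 to 3, but same-numbered libraries did not deviate together. Over 45 pairs of them r was -0.30 to 0.19, and 1 of 18 libraries was most like its own number. With the replicate block g674.t1 was not called at Juvenile 3d against 2d (adjusted p = 0.0592) or 5d against 4d (adjusted p = 0.0584). Depth limits g675.t1 most, with 7 counts at its lowest.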
